A study of Rattus norvegicus with 12 samples.

Results

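The genes described here are the corticosteroid receptors of the rat brain and genes around them. They are Nr3c1 (the glucocorticoid receptor, GR), Nr3c2 (the mineralocorticoid receptor, MR), Hsd11b1 (11β-hydroxysteroid dehydrogenase 1, which regenerates active hormone from its inert 11-keto form inside cells), and 3 genes that the hormone is known to induce, Sgk1 (a serine/threonine kinase), Tsc22d3 (GILZ, a leucine zipper protein) and Per1 (a core repressor of the circadian clock). They were chosen by name, with earlier results of these data known. All probe sets annotated to these 6 of the 10412 genes named on the array were taken, 7 in all and 2 of them for Nr3c1. Corticosterone, the main glucocorticoid of the rat, binds MR with high affinity, so that MR is largely occupied at rest, and GR with lower affinity, so that GR is filled during stress and at the daily peak of secretion. Without hormone both receptors are held by chaperones, and with hormone they act in the nucleus on the transcription of target genes. Hippocampal pyramidal neurons are known for holding both receptors.

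The samples were neurons captured by laser from stained sections of the brains of untreated 6-month-old rats, all of the F1 hybrid of Fisher 344 and BN, with no stress or hormone given. The regions were the CA1 and cerebellar granule (CbG) layers, which form the vulnerable group (VUL), and the CA3 and frontal cortical (CTX, layers IV to VI) neurons of the resistant group (RES), with 3 replicates per region and 12 RAE230A arrays in all. The study asked what distinguishes neurons that are vulnerable to oxidative stress from resistant ones before any stress. The unit is the MAS5 signal, not logged, and array medians lay between 145.5 and 199.3. The sample titles call the replicates biological. The methods, which give 3 replicate samples per population from each animal, do not make clear whether those of a region came from separate rats. The p-values therefore measure only the spread between these samples.

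The arrays labelled replicate 3 of CA3 and of CbG went against their labels. Gabra6, a GABA-A receptor subunit of cerebellar granule cells, read 2567.6 in the array labelled CA3 replicate 3 and 5.6 and 38.6 in the other CA3 arrays. In the array labelled CbG replicate 3 it read 15.4, against 3379.3 and 1282.9 in the other CbG arrays. Nrgn (neurogranin), which is made by hippocampal and cortical neurons, had the opposite pattern, with 49.2 for the array labelled CA3 replicate 3 but 6450.7 for the array labelled CbG replicate 3. Each of these arrays correlated best with an array of the other region (r of 0.932 and 0.933 over probe sets). The CA1 marker Wfs1 was at 3769 in the array labelled CbG replicate 3, above the 1044.7 and 481.4 of CA3 replicates 1 and 2. For this reason 3 arrangements were fitted, the 12 arrays as labelled, the 10 arrays without this pair, and the 2 labels exchanged, and a value with no arrangement beside it is over the 10 arrays. Which arrangement is right was not tested.

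Over the 10 arrays the summed signal of the CA1 markers was 27290 to 34260 in CA1 and at most 5613 elsewhere, that of the CA3 markers 14550 to 14690 in CA3 and at most 3656 elsewhere, that of the granule cell markers 19740 to 25020 in CbG and at most 1794 elsewhere, and that of the deep cortical markers 2698 to 3019 in CTX and at most 1158 elsewhere. Nnat made up most of the CA3 marker sum in CA3 (mean 11910), and Grik4 was also highest there (824.5). Bok was close in CA3 and CA1 (1856 and 1554), and Cacng5 was lower in CA3 than in CA1 (25.6 and 52.83). Of the deep cortical markers, Tle4 and Rprm were highest in CTX (1469 and 1237). Tbr1 and Rorb, under the median in every array, were highest in CbG (44.5 and 116.8). Transcripts of other cell types were present too. The summed signal of 6 oligodendrocyte markers was 4273 to 6776 in CA1, 10060 to 13400 in CA3 and 14100 to 17320 in CbG, and 28970 to 44250 in CTX, and that of 8 astrocyte markers was 10620 to 14140 in CA1, 8334 to 14150 in CA3 and 22060 to 25310 in CbG, and 16340 to 29900 in CTX. The summed signal of 5 Purkinje cell markers was 15790 and 37260 in CbG replicates 1 and 2, with all 5 above the array median, against 3809 to 8630 elsewhere. The arrays labelled replicate 3 of CA3 and of CbG gave 2606 and 4194. With the labels exchanged the CbG sums therefore ranged from 2606 to 37260. Summed over 6 endothelial markers, the signal over the 10 arrays was 535.7 to 964.1 in CA1 and 989.6 to 1272 in CA3. It was 1737 to 2893 in CbG and 2488 to 4301 in CTX. Of 7 microglial markers, 5 were under the array median in all 12 arrays. For beta-actin, the log2 of the 3′ over the 5′ control probe set was 4.62 to 5.35 in CA1, 3.85 to 4.45 in CA3 and 3.88 to 6.52 in CbG, and 4.13 to 5.13 in CTX arrays as labelled. The part of these markers and of RNA quality in the results below was not tested. In such bulk samples fewer cells of a type and less RNA per cell cannot be told apart.

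Over the 10 arrays the GR transcript was lower in CA3 than in each of the other regions. Nr3c1 (probe set 1368221_at) gave signals of 1344.3, 1184.5 and 1369.5 in CA1 and 470.1 and 446.6 in CA3 replicates 1 and 2. In CbG replicates 1 and 2 it gave 1370.2 and 1103.1, and in CTX 946.9, 918.4 and 1045.7. The array labelled CA3 replicate 3 read 1352.7, within the CbG range, and that labelled CbG replicate 3 read 555.5, just above the CA3 pair. No CA3 value of the 10 arrays reached the lowest value of any other region. The share of all probe sets that separate in this way was not counted. The second Nr3c1 probe set, 1368222_at, read 1.6 to 47.3 and lay under the array median in all 12 arrays, so it was not tested and gives no level.

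**Figure D1:**
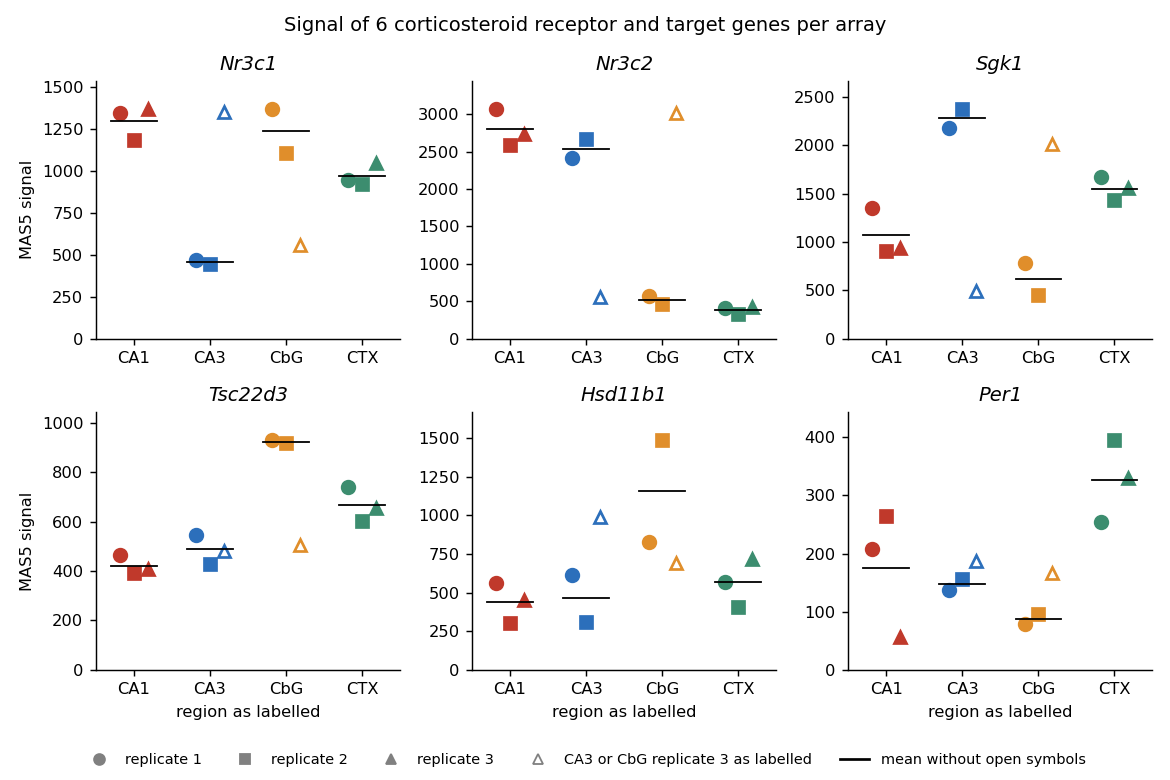
MAS5 signal (linear scale, from 0) of the 6 genes in each of the 12 arrays, by region as labelled; filled symbols are replicates 1 to 3, open triangles the arrays labelled replicate 3 of CA3 and of CbG, and black lines the means without the open symbols. For Nr3c1, Nr3c2 and Sgk1 the open triangle of CA3 sits at the level of the filled CbG symbols and that of CbG near the CA3 symbols, while for Tsc22d3 the open triangle of CA3, at 480.5, stays between the filled CA3 symbols.

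In VUL against RES neurons, 2 of the 5 member probe sets tested over the 10 arrays passed an adjusted p of 0.05 and 1.5-fold, Nr3c1 and Sgk1, beside 17.8% of all 7463 probe sets tested. Nr3c1 was 1.96-fold higher in VUL neurons (log2 difference 0.97, SE 0.14, adjusted p = 0.000488), with the labels exchanged 1.98-fold (adjusted p = 4.6e-05, 18.5% of 7535 called). Over the 12 arrays as labelled the difference was 0.55 (SE 0.30, adjusted p = 0.629). There limma called 0 of 6 member probe sets and 0 of 7535 in all, while 0 members and 743 probe sets had an unadjusted p under 0.05. In the pairs CA1 against CA3 and CbG against CTX limma called 0 members as labelled, beside 1.3% and 0.624% of all, and 0 and 1 members had an unadjusted p under 0.05. The study had itself picked Nr3c1 and Sgk1 from these samples, so their calls are not independent of that choice.

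The Nr3c1 difference over the 10 arrays passed both thresholds in the hippocampal pair of regions and not in the pair of CbG and CTX. In CA1 it was 2.65-fold higher than in CA3 (log2 difference 1.40, SE 0.21, adjusted p = 0.00116), where 2 of 5 members and 10.5% of all probe sets were called, although with no filter on low signals its adjusted p was 0.061. In CbG against CTX neurons the difference was 0.53 (SE 0.21, adjusted p = 0.0773, 95% interval 1.06 to 1.97-fold) and was not called. The exchange gave 0.57 for it (SE 0.16, adjusted p = 0.0148), which passed the p threshold and, at 1.49-fold, missed the fold threshold. After the exchange of labels 2 of 6 members (13.5% of all) were called in CA1 against CA3. The difference between the 2 pairs was 0.87 with an adjusted p of 0.0762 over the 10 arrays (0 members, 14.9% of all called), and 0.83 with an adjusted p of 0.0201 with the labels exchanged (2 members, 24% of all), a call kept in 9 of 15 fits with an array or a replicate number left out. Nr3c1 was 2.29-fold lower in CA3 than in CbG (adjusted p = 0.000955). It was 1.67-fold higher in CA1 than in CTX (adjusted p = 0.00709), a call lost under quantile normalization (log2 difference 0.36, adjusted p = 0.113). CTX lay above CA3 (CA3 minus CTX −0.66, adjusted p = 0.0284), although 6 of 13 such fits kept that call, and CA1 did not differ from CbG beyond error (0.21, 95% interval −0.24 to 0.66). The order of levels was thus CA1, CbG, CTX and CA3, of which the neighbours CA1 and CbG, and CbG and CTX, were not separated.

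Over the 10 arrays the MR transcript was higher in both hippocampal regions than in CbG and CTX, while its VUL minus RES difference of 0.32 (adjusted p = 0.137) was not called. Nr3c2 (1368476_at) read 3075.4, 2591.1 and 2730 in CA1 and 2411.2 and 2663.3 in CA3 replicates 1 and 2. In CbG it read 566.8 and 456.8, and in CTX 405.2, 331.4 and 424.5. The array labelled CA3 replicate 3 had 550.9 and that labelled CbG replicate 3 had 3019.6. Every hippocampal value of the 10 arrays was thus above every CbG and CTX value, and again the share of all probe sets that do so was not counted.

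The hippocampal excess of Nr3c2 was among the larger differences on the array. It was 9.06-fold in CA1 over CTX (log2 difference 3.18, SE 0.19, adjusted p = 7.29e-07, 34.7% of all probe sets called), a size that 28 of the 7463 probe sets reached, Nr3c2 included. It was 8.67-fold in CA3 over CTX (adjusted p = 1.37e-05, 34.2% called). Against CbG it was 6.1-fold in CA1 (adjusted p = 2.45e-06, 39.3% called) and 5.84-fold in CA3 (adjusted p = 5.21e-06, 43.1% called). All 4 calls held in each of 13 fits with an array or a replicate number left out. As labelled they were not called, with adjusted p of 0.0513 for CA1 against CTX (6.61% of all called), 0.133 for CA3 against CTX (1.94%), 0.269 for CA1 against CbG (1.25%) and 0.805 for CA3 against CbG (0%). All 4 were called with the labels exchanged, where 40.6% of all probe sets were called for CA1 against CbG, 34.1% for CA1 against CTX, 45.5% for CA3 against CbG and 36.3% for CA3 against CTX. CA1 and CA3 were not separated (log2 difference 0.06, 95% interval −0.41 to 0.54). CbG minus CTX was 0.57 (adjusted p = 0.0723) over 10 arrays and 0.63 (adjusted p = 0.0128) with the labels exchanged.

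The balance of both receptors, given as a description, did not overlap over the 10 arrays between hippocampal and other neurons, nor between CA1 and CA3. How often other pairs of probe sets separate in this way was not counted. The log2 of the Nr3c1 over the Nr3c2 signal was −1.19, −1.13 and −1.0 in CA1 and −2.36 and −2.58 in CA3 replicates 1 and 2. It was 1.27 in both CbG arrays and 1.22, 1.47 and 1.30 in CTX. The arrays labelled replicate 3 of CA3 and of CbG gave 1.30 and −2.44. The probe sets of the genes bind with unlike efficiency, so the value in a region is no ratio of molecules and only its difference between regions can be read. As a difference of 2 log values of 1 array it does not depend on a scaling factor of the array.

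**Figure D2:**
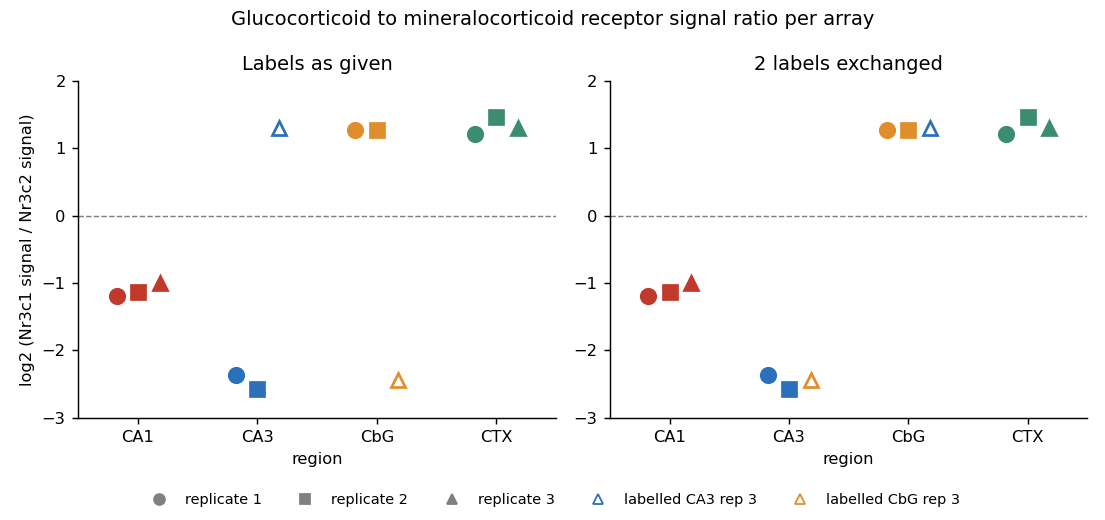
log2 of the Nr3c1 signal divided by the Nr3c2 signal in each array, with the labels as given (left) and with the 2 labels CA3 replicate 3 and CbG replicate 3 exchanged (right); colours follow the label as given, and the dashed line marks equal signals. With the labels exchanged the CA3 values lie between −2.58 and −2.36 and the CbG values between 1.27 and 1.30.

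Over the 10 arrays the mean log2 ratio was −1.11 ± 0.10 in CA1 (SD, n = 3), −2.47 ± 0.15 in CA3 (n = 2), 1.27 ± 0.00 in CbG (n = 2) and 1.33 ± 0.13 in CTX (n = 3). The ratio in CA1 was therefore 2.57-fold that in CA3, while CbG and CTX differed by 1.04-fold, under the spread of the CTX arrays. CA1 and CA3 stood 5.42-fold and 13.9-fold below CTX. The CA3 mean with the labels exchanged was −2.46 ± 0.11 and the CbG mean 1.28 ± 0.01 (SD, n = 3 each). As labelled they were −1.21 ± 2.18 and 0.03 ± 2.14, so the spread within these 2 regions exceeded the difference between them, −1.25 for CA3 minus CbG. No p is given for the ratio, which is made from the chosen genes.

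Hsd11b1, on the hormone supply side, had its highest mean in CbG neurons and was uneven between replicates. Its probe set 1386953_at read 559.4, 303.2 and 452.1 in CA1 and 612.2 and 310.7 in CA3 replicates 1 and 2. In CbG it read 826.7 and 1488.8, and in CTX 568, 408.5 and 720.2. Replicate 2 was the lowest of CA1, CA3 and CTX and the higher of CbG. The arrays labelled replicate 3 of CA3 and of CbG read 988.3 and 690.8, so the 3 highest of the 12 values were in the 2 undisputed CbG arrays and the array labelled CA3 replicate 3.

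In CbG against CTX neurons, 2 of 5 member probe sets were called over the 10 arrays, Hsd11b1 and Sgk1, beside 26.3% of all probe sets. Hsd11b1 was 2.41-fold higher in CbG (log2 difference 1.27, SE 0.37, adjusted p = 0.0245). The value rested on CbG replicate 2, the array with the highest Purkinje marker sum, since without it the difference was 0.39 (adjusted p = 0.39), and 6 of 13 fits with an array or a replicate number left out kept the call. With the labels exchanged the difference was 1.14 (adjusted p = 0.0105, 34% of all called), kept in 14 of 15 such fits and lost without the arrays numbered 3. As labelled it was 0.96 (adjusted p = 0.333). Against CbG it was 2.5-fold lower in CA1 (adjusted p = 0.0133) and 2.17-fold lower in CA3 (adjusted p = 0.0339), and both calls were lost without CbG replicate 2 (adjusted p = 0.258 and 0.545). CA1 minus CA3 was −0.21 (95% interval −1.01 to 0.60). VUL minus RES was 0.53 (adjusted p = 0.142), and without CbG replicate 1 it was 0.97 and called (adjusted p = 0.00163). Of 9 genes of corticosteroid metabolism and transport, 7 were on the array and 2 of them, Hsd11b1 and Por, were tested. Hsd11b2, which inactivates the hormone, read below the median in all 12 arrays, as did Serpina6, the plasma carrier of corticosteroids, and Abcb1a, an efflux pump of brain vessels. H6pd, also of this list, exceeded the median in 1 of 12 arrays. Por, a reductase of microsomal cytochromes P450, averaged 547 in CA1, 423.1 in CA3 and 160.4 in CbG, and 187.6 in CTX and was not called in VUL against RES neurons (log2 difference 0.08, adjusted p = 0.877).

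Of the induced genes, Sgk1 had its highest mean in CA3, Tsc22d3 in CbG and Per1 in CTX neurons. Sgk1 (1367802_at) read 1351.6, 911.6 and 942.2 in CA1 and 2183.7 and 2380.4 in CA3 replicates 1 and 2. In CbG it read 781.7 and 454.8, and in CTX 1668.3, 1434.5 and 1556.4. The array labelled CA3 replicate 3 had 492.9 and that labelled CbG replicate 3 had 2011.3. Among the 10 arrays the highest VUL value, 1351.6, was under the lowest RES value, 1434.5, before centring on array medians. Relative to the array median, CA1 replicate 1 was at 8.59-fold and the CTX arrays at 8.58, 7.72 and 7.83-fold. The groups thus overlapped on the centred scale that was tested.

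Sgk1 was 2.3-fold lower in VUL than in RES neurons (log2 difference −1.20, SE 0.16, adjusted p = 0.000344) and was called in all 13 fits with an array or a replicate number left out. It was 2.19-fold lower in CA1 than in CA3 (adjusted p = 0.0118) and 2.42-fold lower in CbG than in CTX (adjusted p = 0.00265). The CA1 against CA3 call was lost without CA1 replicate 2, CA3 replicate 2 or all arrays numbered 2 (adjusted p = 0.0906 to 0.247). With no filter on low signals the adjusted p was 0.153 for CA1 against CA3 and 0.0614 for CbG against CTX, whereas with the labels exchanged both pairs were called in all 15 fits. As labelled the VUL minus RES difference was −0.51 (SE 0.49, adjusted p = 0.822). The widest gap, 4.48-fold, was between CA3 and CbG (adjusted p = 4.23e-05). CA1 minus CTX was −0.24 (95% interval −0.69 to 0.21) relative to array medians, in a comparison where the median of all probe sets tested was 0.33, and −0.65 (adjusted p = 0.0359) under quantile normalization.

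Tsc22d3 had its highest values in CbG replicates 1 and 2. The probe set 1367771_at read 464.6, 391.4 and 406.7 in CA1 and 546.7 and 428.9 in CA3 replicates 1 and 2. In CbG it read 932.5 and 918.4, and in CTX 739.8, 605 and 656.7. The arrays labelled replicate 3 of CA3 and of CbG read 480.5 and 507.2, both within the range of the other CA3 arrays. The array labelled CA3 replicate 3, which followed CbG for Nr3c1, Nr3c2 and Sgk1, thus had 480.5 against 918.4 and 932.5 in CbG. No VUL against RES difference was called (0.18, 95% interval −0.13 to 0.49, and 0.07 as labelled). Over the 10 arrays Tsc22d3 was 1.92-fold lower in CA1 than in CbG (adjusted p = 0.00413) and 1.63-fold lower in CA3 than in CbG (adjusted p = 0.0232). The difference between CA3 and CbG was not called with the labels exchanged (log2 difference −0.45, adjusted p = 0.0856), and as labelled CA1 minus CbG was −0.71 (adjusted p = 0.159) and CA3 minus CbG −0.49 (adjusted p = 0.8). CbG minus CTX was 0.60 (adjusted p = 0.0562), and 0.61 (adjusted p = 0.0356) without the replicate number as a block.

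Per1 lay near the array median and had its highest mean in CTX neurons. The probe set 1374855_at read 207.3, 264.2 and 56.4 in CA1 and 136.9 and 156.7 in CA3 replicates 1 and 2. In CbG it read 79.6 and 96.6, and in CTX 253.5, 395.7 and 329.9. It exceeded the array median in 8 of 12 arrays, which passed the filter over 12 arrays but not over 10. All CTX arrays were above the median, at 1.3 to 2.13-fold, while CbG replicates 1 and 2 were at 0.425 and 0.583-fold. Per1 thus just met the filter, through CTX among other arrays, and its CbG values were low signals. The arrays labelled replicate 3 of CA3 and of CbG read 187.3 and 167. With the labels exchanged Per1 was 2.5-fold lower in CbG than in CTX (log2 difference −1.32, SE 0.45, adjusted p = 0.0333), where Sgk1, Hsd11b1 and Nr3c2 were the other members called. Of 15 fits with an array or a replicate number left out the probe set passed the filter in 5 and was called in 2, with adjusted p of 0.12 to 0.143 without CbG replicate 1, CbG replicate 2 or all arrays numbered 1. CA1 replicate 3, at 56.4, was far below the other CA1 arrays. As labelled the difference was −1.39 (adjusted p = 0.257).

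**Figure D3:**
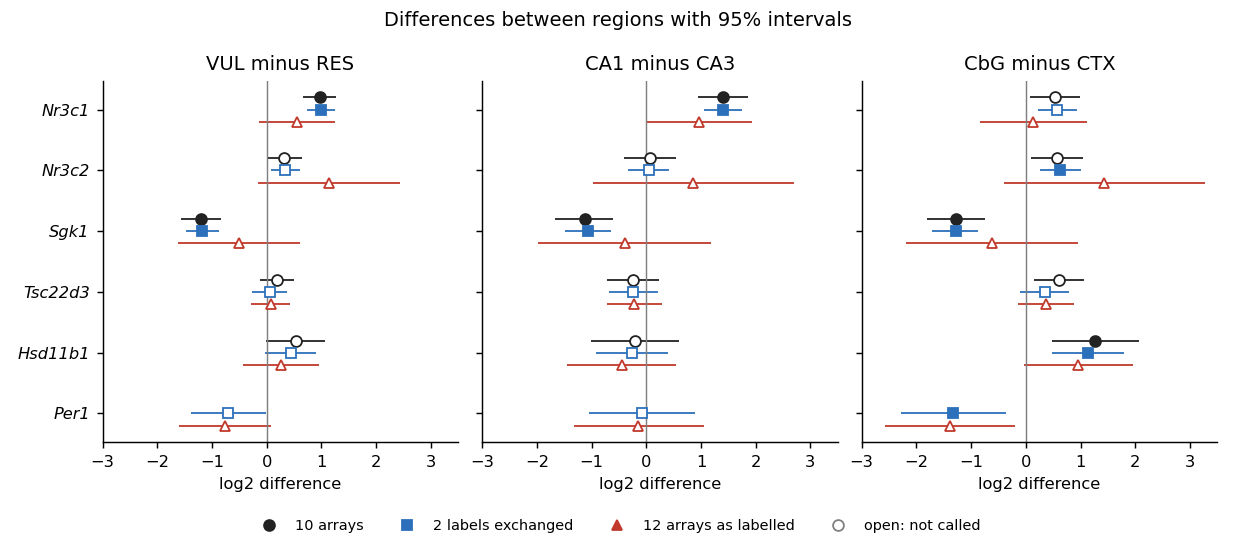
log2 differences (points) with 95% intervals (bars) from limma for the 6 genes in VUL minus RES, CA1 minus CA3 and CbG minus CTX neurons, over 10 arrays (circles), with 2 labels exchanged (squares) and over 12 arrays as labelled (triangles); filled symbols passed an adjusted p of 0.05 and 1.5-fold. Every triangle is open, and Per1 has no circle because it was not tested over 10 arrays.

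The start sites of the induced genes were inspected as background, since the receptors bind DNA at pairs of the half-site AGAACA. The RefSeq windows of 300 bases (assembly GRCr8) gave 9 windows for 4 of the 6 genes, Nr3c1, Sgk1, Tsc22d3 and Per1. Windows for Nr3c2 and Hsd11b1 were not used here. Each window held 250 bases before and 50 after the annotated start, so a site farther away would not be seen. The half-site AGAACA, searched on both strands, was in 0 of the 9 windows and in 20.7% of 33469 windows of all genes. The looser palindrome ACANNNTGT was in 1 window, of Tsc22d3, and in 6.86% of all. The clock E-box CACGTG was in 0 of the 9 and in 6.42% of all, and TATAAA, on the gene's strand, in 3 of the 9 and in 8.8% of all. Printed are the 2 Sgk1 windows and the Tsc22d3 window with TATAAA, and the Tsc22d3 window with the palindrome, with these letters in capitals, to show what lies before the starts of the 2 induced genes whose regional differences were called over the 10 arrays. RefSeq annotates 3 start sites for each of these genes, which 1 probe set per gene does not tell apart.
Sgk1, chr1:24807182-24807481, minus strand: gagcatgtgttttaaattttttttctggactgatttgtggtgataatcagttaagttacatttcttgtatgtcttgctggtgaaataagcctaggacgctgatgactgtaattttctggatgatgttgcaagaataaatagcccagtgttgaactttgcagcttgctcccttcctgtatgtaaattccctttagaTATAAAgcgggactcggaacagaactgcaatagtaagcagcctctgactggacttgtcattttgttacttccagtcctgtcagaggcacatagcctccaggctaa
Sgk1, chr1:24804782-24805081, minus strand: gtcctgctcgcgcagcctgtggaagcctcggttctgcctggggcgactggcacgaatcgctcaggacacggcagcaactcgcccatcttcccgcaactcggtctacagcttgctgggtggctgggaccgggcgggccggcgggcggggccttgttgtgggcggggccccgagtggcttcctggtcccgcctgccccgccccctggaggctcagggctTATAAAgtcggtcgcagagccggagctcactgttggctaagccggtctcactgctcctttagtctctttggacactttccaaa
Tsc22d3, chrX:109009985-109010284, minus strand: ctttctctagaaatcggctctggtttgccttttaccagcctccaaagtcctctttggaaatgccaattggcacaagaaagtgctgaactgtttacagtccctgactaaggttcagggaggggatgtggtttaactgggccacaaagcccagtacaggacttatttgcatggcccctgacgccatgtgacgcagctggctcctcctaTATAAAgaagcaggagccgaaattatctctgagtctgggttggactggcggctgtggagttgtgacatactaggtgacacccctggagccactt
Tsc22d3, chrX:109065381-109065680, minus strand: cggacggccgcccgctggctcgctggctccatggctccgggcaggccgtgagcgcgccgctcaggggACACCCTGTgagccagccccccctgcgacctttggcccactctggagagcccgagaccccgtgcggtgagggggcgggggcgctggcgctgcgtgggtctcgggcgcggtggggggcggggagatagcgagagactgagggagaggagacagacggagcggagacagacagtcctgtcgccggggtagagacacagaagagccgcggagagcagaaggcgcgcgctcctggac
The TATAAA letters lie 55, 33 and 44 bases upstream of the annotated start in the first 3 windows, and the palindrome 183 bases upstream in the last. The matches are letters in a window and not measured sites.

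Among receptor partners the share of calls was read against that of all probe sets, of which 8.66% were called higher and 9.17% lower in VUL neurons over the 10 arrays. The gene lists here and below were chosen with earlier results of these data known, so their shares of calls are descriptive. Of 12 genes of the chaperone complex, 10 were tested, and in VUL against RES neurons over the 10 arrays 1 was higher and 1 lower, with a median log2 difference of 0.11 beside 0.04 over all probe sets. Dnajb1, an HSP40 co-chaperone, was higher (log2 difference 0.72, adjusted p = 0.00727, kept in 13 of 13 fits with an array or a replicate number left out). Hspa4, an HSP110 family member, was lower (−0.64, adjusted p = 0.0457), a call kept in 3 of 13. Of 18 coregulators, 11 were tested, and 3 were higher and 0 lower, with a median of 0.38. Ep300, a histone acetyltransferase (0.66, adjusted p = 0.0342), and Gmeb2, which binds the glucocorticoid modulatory element (0.70, adjusted p = 0.0362), kept the call in 5 and 4 of 13 fits. Rbm39, a splicing factor and coactivator (0.63, adjusted p = 0.00651), kept it in 12 of 13. The study had itself listed Gmeb2 and Rbm39 (as Rnpc2) as higher in vulnerable neurons of these samples, so these calls are not independent of it. In CbG against CTX neurons 5 coregulators were higher and 0 lower, where 14.1% of all were called higher and 12.2% lower. As labelled limma called 0 chaperones and 0 coregulators in these comparisons, and in VUL against RES neurons Dnajb1 was at 0.70 (adjusted p = 0.148), Hspa4 at −0.04, Ep300 at 0.28, Gmeb2 at 0.32 and Rbm39 at 0.32 (adjusted p from 0.759 to 0.989).

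Of 31 genes known to be induced by glucocorticoids, the members included, 15 were tested over the 10 arrays, of which 1 was higher and 1 lower in VUL neurons, near the 8.66% and 9.17% of all probe sets, with a median of −0.12. The lower one was Sgk1. The higher one was Rasd1, a dexamethasone-induced small G protein, with mean signals of 4017 in CA1, 2262 in CA3 and 624 in CbG, and 222.9 in CTX (log2 difference 1.09, adjusted p = 0.0197), called in 8 of 13 fits with an array or a replicate number left out. Exchanged labels left 0 of 16 such genes higher and 2 lower, where 18.5% of all probe sets were called in either direction. Rasd1 was at 2.19 as labelled (adjusted p = 0.404) and 0.78 with the exchange (adjusted p = 0.0853). Fkbp5, a co-chaperone that lowers the hormone affinity of GR, was singled out after its values were seen. It averaged 743 in CA1, 1130 in CA3 and 349.2 in CbG, and 488.4 in CTX, and in VUL against RES neurons its difference of −0.50 (adjusted p = 0.0311) fell short of 1.5-fold. The sign turned with the arrangement, to 0.17 as labelled (adjusted p = 0.954), and was −0.53 with the labels exchanged (adjusted p = 0.0108).

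Of 16 genes around SGK1, 11 were tested, and Sgk1 was the 1 lower and Foxo3 the 1 higher in VUL neurons, near the 8.66% and 9.17% of all probe sets, with a median of −0.10. Foxo3, a forkhead factor that SGK1 phosphorylates and keeps out of the nucleus, averaged 1454 in CA1, 933.8 in CA3 and 6012 in CbG, and 2395 in CTX. It was higher in VUL neurons by 1.03 on the log2 scale (adjusted p = 0.000334) and kept the call in 13 of 13 fits with an array or a replicate number left out. In CbG it was higher than in CTX by 1.46 (adjusted p = 0.000335), and CA1 minus CA3 was 0.60 and not called. As labelled no such call was made, with 0.26 for VUL minus RES (adjusted p = 0.936) and −0.19 for CA1 minus CA3, while the exchange gave 0.98 for VUL minus RES (adjusted p = 5.56e-05). The order of its regional means was the reverse of that of Sgk1 in CA3 and CbG, the lowest and highest for Foxo3 and the highest and lowest for Sgk1. Foxo3 was named for its call in these arrays, in the direction opposite to that of Sgk1, so this follows in part from the choice.

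**Figure D4:**
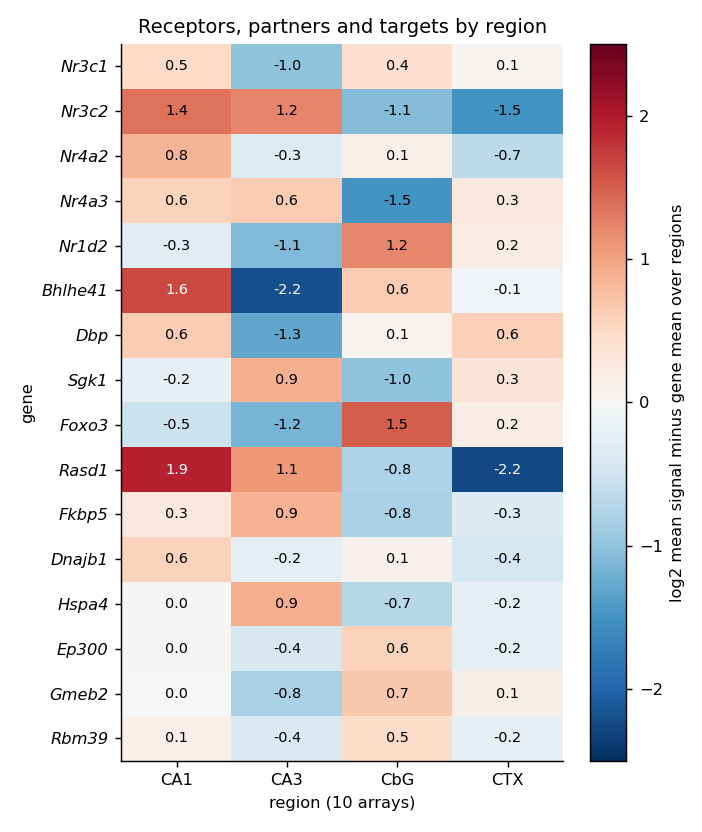
Regional pattern of both receptors and of 14 partner, target and related genes over the 10 arrays: each cell gives the log2 of the mean signal in that region minus the gene's mean over the 4 regions (n = 3 arrays in CA1 and CTX, 2 in CA3 and CbG). Nr3c1, Nr1d2, Bhlhe41, Dbp, Foxo3, Ep300, Gmeb2 and Rbm39 have their lowest value in CA3, and Nr4a3, Sgk1, Fkbp5 and Hspa4 their highest. Apart from Nr3c1, Nr3c2, Sgk1 and Fkbp5, the genes were named for their calls in VUL against RES neurons over these same arrays. A lowest or highest value in CA3 or CTX therefore follows in part from that choice.

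The circadian clock list, to which Per1 belongs, held the largest share of calls of the 7 lists between CA1 and CA3. Of 19 genes, 8 were tested over the 10 arrays, and 4 were higher in CA1 and 0 lower (5.48% of all probe sets were called higher and 5.02% lower), with a median log2 difference of 0.97 beside −0.03. These were Bhlhe41 (DEC2, a clock repressor, mean signals 4453 in CA1 and 310.6 in CA3, difference 4.58, adjusted p = 0.000201), the PAR bZIP factors Dbp (1.92, adjusted p = 0.000603) and Hlf (2.01, adjusted p = 0.000806), and Per2 (1.17, adjusted p = 0.00754). Dbp averaged 495.3 in CA1 and 128.7 in CA3, where the array medians were 156.9 and 145.5, so its CA3 level was a low signal. Hlf and Per2 were named after their values were seen. All but Per2 kept the call in 13 of 13 fits with an array or a replicate number left out, and Per2 did in 9. After the exchange of labels 6 of 9 were higher in CA1 and 0 lower, where 13.5% of all probe sets were called in either direction. In VUL against RES neurons 3 of 8 were higher and 0 lower, where 8.66% of all were called higher and 9.17% lower. They were Bhlhe41 (2.74, adjusted p = 0.000192), Nr1d2 (REV-ERBβ, 0.96, adjusted p = 0.00171) and Dbp (0.75, adjusted p = 0.00793). As labelled 0 of 9 were called, with median differences of 0.62 in CA1 against CA3 and 0.19 in VUL against RES neurons.

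Among 27 nuclear receptors, 10 were tested, and 3 were higher and 1 lower in VUL neurons (8.66% and 9.17% of all probe sets), with a median of 0.31 beside 0.04 over all. Besides Nr3c1 and Nr1d2, Nr4a2 (NURR1) was higher (1.13, adjusted p = 0.0103, kept in 10 of 13 fits with an array or a replicate number left out). Nr4a3 (NOR1) was lower (−0.95, adjusted p = 0.00148, kept in 13), with mean signals of 1541 in CA1, 1616 in CA3 and 369.6 in CbG, and 1246 in CTX. As labelled 0 of 10 were called in VUL against RES neurons. There Nr4a2 was at 1.13 (adjusted p = 0.184), and Nr4a3 had the opposite sign, at 0.19 (SE 0.78, adjusted p = 0.969). The sex steroid receptors Esr1, Esr2 and Pgr, like Rara and Vdr, were under the array median in all 12 arrays, and were not tested.

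The transcripts whose centred log2 signal was most like that of each member over the 12 arrays, found without the labels among 6320 probe sets of other genes, are given as a description. The points of each correlation share their regions and the array scaling. For Nr3c2 they were Bok, a BCL2 family protein (r = 0.986), Pkp2, a desmosomal plakophilin (0.980), and the zinc finger gene Zfp189 (0.980), of which Pkp2 averaged 2587 in CA1, 1893 in CA3 and 230.7 in CbG, and 192.9 in CTX. For Nr3c1 they were Rmi1 (0.950), Dtx1 (0.928) and Hmgn2 (0.928), and Dtx1 averaged 962.7 in CA1, 192.2 in CA3 and 866 in CbG, and 848.5 in CTX. For Sgk1 they were the sulfatase Sulf2 (0.975), the adhesion molecule Amigo2 (0.961) and the mitochondrial malic enzyme Me3 (0.956), and Sulf2 averaged 1179 in CA1, 5755 in CA3 and 365.2 in CbG, and 2299 in CTX. The closest transcripts were less close for Hsd11b1 (Crot, 0.925), Tsc22d3 (Dbi, 0.871) and Per1 (Mnt, 0.851).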

How the data were processed

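The 12 RAE230A arrays were deposited as MAS5 signal intensities, which the authors had made in GCOS after 2 cycles of labelling and scaled to one target intensity. The MAS5 version is not given in the sources used here. Intensities were taken as log2 and centred on each array's median. Probe sets above that median in 8 of 12 arrays (7 of 10) were tested with limma 3.58.1 (R 4.3.3), in a model of 4 region means plus a block for the replicate number, since the study paired its samples. Contrasts, Benjamini-Hochberg adjustment over all probe sets tested, and a call at an adjusted p of 0.05 and 1.5-fold followed. Of 15866 probe sets that were no controls, 12789 had 1 symbol, 312 several and 2771 none listed. The members and gene lists were chosen with earlier results of these data known. Named were the members, up to 4 called genes of each list by size in VUL against RES (or the 2 brightest where none was called), and the 3 most correlated transcripts. Scripts were tested on simulated data. Alternatives were quantile normalization, no signal filter, no block and left-out arrays or replicate numbers.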

Additional observations from a re-analysis of the deposited data

Results flagged for a closer look

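In the 6 VUL arrays as labelled, Nr3c1 in the array labelled CbG replicate 3 stood apart from the other 5, at a log2 signal of 1.79 over the array median. It was the 1 gap beyond Dixon's critical value among 42 groups of values examined, where chance flags about 1 in 20. With the labels exchanged the CA1 minus CA3 difference exceeded the CbG minus CTX difference by 0.83 for Nr3c1 (limma adjusted p = 0.0201), and for Hsd11b1 the same quantity was −1.41 on the log2 scale (limma adjusted p = 0.0311). Over the 10 arrays these were 0.87 (adjusted p = 0.0762) and −1.48 (adjusted p = 0.0911), and neither was called.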

How the results depend on the processing

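Over the 12 arrays as labelled 0 members were called in VUL against RES, CA1 against CA3 and CbG against CTX, against 2, 2 and 4 with the labels exchanged and 2, 2 and 2 over the 10 arrays. Leaving out 1 array or replicate number gave 0 to 2, 0 to 2 and 0 to 1 members as labelled, and 2 to 4, 1 to 2 and 1 to 4 over the 10 arrays. With no signal filter 0 and 0 members were called over the 10 arrays in CA1 against CA3 and CbG against CTX. The CA1 minus CA3 differences of Nr3c2 (0.06) and Hsd11b1 (−0.21), neither of them called, changed sign with left-out arrays, from −0.20 to 0.31 and from −0.59 to 0.18; the cause was not tested. Same-numbered arrays of unlike regions deviated together with a mean r of −0.061 as labelled (lowest −0.887) and 0.120 over the 10 arrays (13 pairs, lowest −0.036). Arrays of unlike number gave a mean r of 0.020 as labelled and −0.065 over the 10 arrays. Whether the numbers pair the arrays was not settled by these values. Without the replicate block 2, 2 and 3 members were called over the 10 arrays and 0, 0 and 0 as labelled, while calls over all probe sets as labelled were 30, 160 and 112, against 0, 98 and 47 with the block. A paired t-test after that of the methods was run at an unadjusted p of 0.05 and 1.5-fold. It paired CA1 with CA3 and CbG with CTX by replicate number. As labelled 196 of 7535 probe sets passed, with no member among them. Over the 10 arrays 600 of 7463 passed, Nr3c1 and Sgk1 among them, and after adjustment 0 passed in both. The study filtered on present calls, normalized in another way and did not state its pairs. These counts therefore do not repeat its test. The receptor ratio differences of 0.11 for CA1 minus CA3 and −1.30 for CbG minus CTX as labelled had SDs over replicate numbers of 2.08 and 2.12, too wide to show a move, and became 1.35 and −0.05 with the labels exchanged. As labelled, with left-out arrays, the ratio differences ranged from −0.57 to 1.36 for CA1 minus CA3, from −1.92 to −0.06 for CbG minus CTX and from −2.49 to −2.37 for CA1 minus CTX. The number of arrays limits the precision throughout, and CA3 and CbG had 2 each over the 10 arrays.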
